A study of Arabidopsis thaliana with 18 samples.

Results

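DUO1 (AT3G60460) is a MYB transcription factor of the Arabidopsis male germline, and DAZ1, DAZ2, DAZ3, DAN1, DAF1, DAW1, OPT8, PCR11 and IMPA-8 are genes it is known to activate in sperm. These 10 genes were taken by their AGI locus from the deposited gene tables. All 10 were among the 28424 entries of the pollen table, and 9 were among the 24292 entries of the late microspore table, which does not list IMPA-8. The reference annotation names 17 genes as DUO1 targets on this basis, and 9 of them are in the set. RNA was measured in 18 libraries of ecotype Col-0, 3 in each of 6 groups: V-Mt sperm cell (SC) nuclei, WT SC nuclei, V-Mt vegetative cell (VC) nuclei, WT VC nuclei, V-Mt late microspores (LMS) and WT LMS.

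The V-Mt pollen line carried pLat52:REF6-GFP, in which the LAT52 promoter, known for its activity in the vegetative cell, drives REF6, an enzyme that removes methyl groups from lysine 27 of histone H3. It also carried an RFP-tagged histone under the HTR10 promoter, which the labels call HTR10 in the first V-Mt pollen library and number up to HTR15 over the others. WT pollen carried pACTIN11:H2B-GFP and pHTR10:HTR10-RFP. V-Mt LMS carried pLat52:REF6-GFP with pHTR10:HTR10-RFP, and WT LMS carried pHTR10:HTR10-RFP alone. HTR10 is itself activated by DUO1, so the sperm marker of every group used a promoter from the same pathway. The GFP fusion that defined the VC gate differed between V-Mt VC (REF6) and WT VC (histone H2B), and nothing in the labels tells if the 3 libraries of a group come from different plants, so the p-values rest on a spread that may be technical. Plants grew in 16 h light and 8 h dark at 22 °C.

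The pollen grain holds a large vegetative cell, which makes the tube, and a pair of sperm cells, which descend from the generative cell. DUO1 is switched on in the generative cell after the asymmetric division of the microspore, and it is required both for that cell to divide and for sperm genes to be expressed. DAZ1 and DAZ2 are zinc finger repressors that act through TOPLESS corepressors and are needed, like DUO1, for the germ cell to divide. MicroRNA miR159 targets the DUO1 transcript and those of several related MYB genes.

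The sequence through which miR159 reaches DUO1 is shown first because DUO1 is the known miR159 target of the set. It was read from TAIR10.1, the RefSeq build, and lies in the coding part of exon 1 of 3, at chr3:22343375-22343395 on the minus strand. The MIR159A gene lies on the minus strand of chromosome 1, with its mature sequence at chr1:27713234-27713254. Capitals mark bases 2 to 8 of the microRNA, its seed, and the bases of the site that face them.
miR159a: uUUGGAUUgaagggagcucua
miR159b-3p: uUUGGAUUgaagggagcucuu
miR159c: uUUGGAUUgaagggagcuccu
DUO1 site: uggagcuccauucGAUCCAAa
MYB33 site: uggagcucccuucAUUCCAAu
MYB101 site: uagagcuuccuucAAACCAAa
The 3 microRNAs share 1 seed. Against miR159a, the DUO1 site had 18 paired bases, 2 G:U pairs and 1 unpaired base, the MYB33 site had 18, 1 and 2, and the MYB101 site had 19, 1 and 1. No MIR159 gene is listed in either table, so no level of the microRNA was measured here.

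The next sequences are stretches upstream of the annotated gene starts, shown for the words AACCGT and AACCGC, a MYB-type core that DUO1 is known to bind. Both words were searched on both strands from 250 bases before to 50 bases after the annotated start of each gene. Each line holds 60 bases that end before the gene start, 5′ to 3′ on the gene's strand in TAIR10.1, with matches in capitals (ACGGTT and GCGGTT are the same words on the other strand).
DUO1 promoter, chr3:22343577-22343636, minus strand: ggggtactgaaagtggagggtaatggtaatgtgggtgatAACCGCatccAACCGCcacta
DAZ1 promoter, chr2:7477738-7477797, minus strand: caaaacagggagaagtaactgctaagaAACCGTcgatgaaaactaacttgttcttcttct
DAZ3 promoter, chr4:16923236-16923295, plus strand: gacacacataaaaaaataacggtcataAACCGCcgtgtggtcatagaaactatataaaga
DAF1 promoter, chr3:23031430-23031489, plus strand: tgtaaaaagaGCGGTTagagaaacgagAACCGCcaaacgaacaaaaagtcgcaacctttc
DAN1 promoter, chr3:1257018-1257077, minus strand: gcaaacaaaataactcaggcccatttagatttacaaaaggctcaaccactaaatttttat
Of the 10 windows, 8 held at least 1 match, and those of DAN1 and PCR11 held none. Among the promoters of all 27443 protein-coding nuclear genes, 3399 (12.4%) held a match. Of the 8 annotated DUO1 targets outside the set, 6 had one. These are matches of letters and not measured sites, and no match says only that the letters are not in that window.

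In WT pollen the genes were sperm genes. Levels are given in FPKM as deposited, a fragment count divided by gene length and library size, so levels of different genes are compared per length. Tests were run with limma on log2(FPKM + 1), with the Benjamini-Hochberg adjustment over all 19733 genes that reached 1 FPKM in at least 3 pollen libraries. Of the 10 genes 9 passed that filter, and IMPA-8 did not. A gene that is high in SC alone passes this filter through SC, so counts over the 9 do not stand for all 10. All 9 were called higher in WT SC with WT VC as the baseline, a comparison in which 40.4% of all tested genes were called, 27.3% higher and 13.1% lower. Their log2 fold changes ran between 5.62 (PCR11) and 6.57 (DAZ1), with a median of 6.03, beside a median of 0.36 over all tested genes.

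DAF1 (AT3G62230, chromosome 3), an F-box protein gene, was the most abundant gene of all in 5 of the 6 SC libraries and ranked 2 in WT SC replicate 2. Its level was 59375, 59069 and 47106 FPKM in V-Mt SC, against 59134, 34764 and 58331 FPKM in WT SC. DAF1 alone made up 3.82% to 5.08% of all FPKM in V-Mt SC libraries, against 2.77% to 4.98% in those of WT SC. The other abundant genes were DAZ3, DAN1 and PCR11, which ranked between 7 and 24 in V-Mt SC libraries, against 8 and 31 in those of WT SC. All members together took 6.65% to 8.45% of FPKM in the V-Mt SC libraries, against 4.81% to 8.80% in those of WT SC. In VC they took 0.382% to 0.426% in V-Mt, against 0.106% to 0.164% in WT. Most of the V-Mt VC share was DAN1, at 0.328% to 0.363%, against 0.0141% to 0.0181% in WT VC. DAF1 went the other way, at 0.0331% to 0.0461% in V-Mt VC, against 0.0616% to 0.0990% in WT VC.

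**Figure D1:**
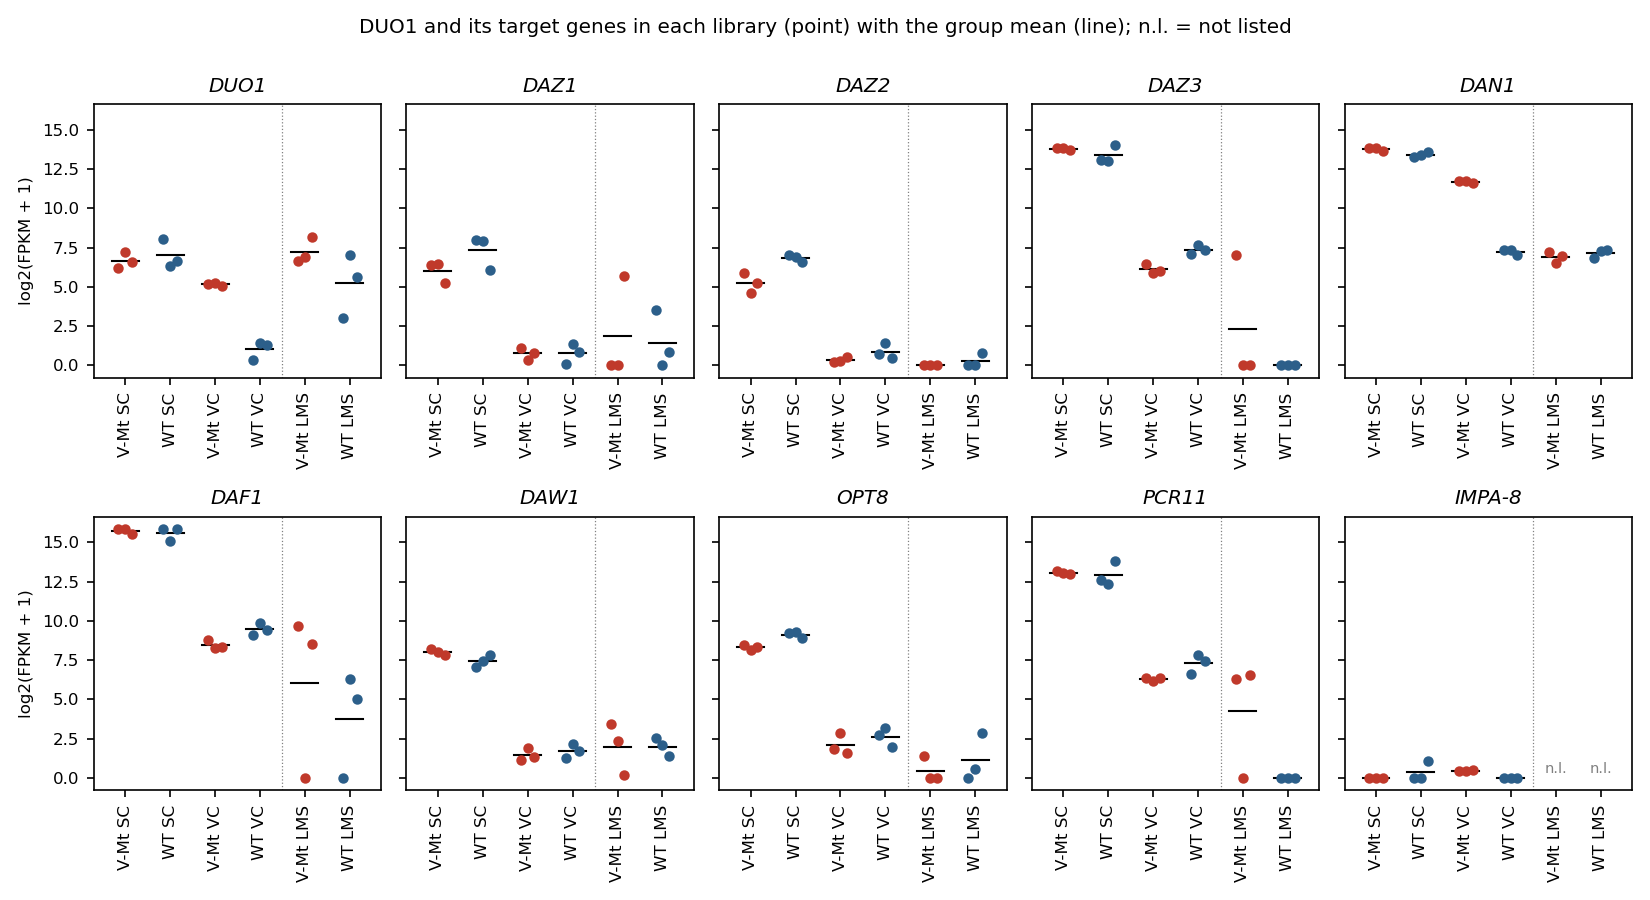
Levels of the 10 genes in every library, as log2(FPKM + 1), with V-Mt in red and WT in blue; points are the 3 libraries of a group, lines are group means, and the dotted line separates the microspore table, which was deposited separately. DUO1 and DAN1 stand higher in V-Mt VC than in WT VC, and the other sperm genes in V-Mt VC lie near WT VC or below it.

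In V-Mt VC, DUO1 and DAN1 stood far above WT VC, and none of the other 7 tested genes rose. DUO1 and DAN1 rose by 4.13 (SE 0.48) and 4.43 (SE 0.13) on the log2 scale, while DAZ3, DAF1 and PCR11 fell by 1.23, 0.99 and 0.99. DAZ1, DAZ2, DAW1 and OPT8 did not pass the test. This gives 2 higher and 3 lower of 9, in a comparison where 73.3% of all tested genes were called, 62.5% higher and 10.8% lower. A call higher is therefore the common outcome in V-Mt VC and a call lower the less common one. The median of the 9 was -0.52, beside a median of 1.92 over all tested genes.

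DUO1 (chr3:22342321-22343576, minus strand) had 35.92, 36.66 and 32.42 FPKM in V-Mt VC, against 0.28, 1.74 and 1.48 FPKM in WT VC. All V-Mt VC libraries lay above all WT VC libraries, and the adjusted p was 1.68e-05 (limma). In SC the level was 72.34, 149.53 and 96.43 FPKM in V-Mt, against 267.14, 80.93 and 97.4 FPKM in WT. The SC libraries of the lines overlapped, with WT SC replicate 1 above all others, and no difference was detected (log2 -0.34, SE 0.48, adjusted p 0.742, limma). Ordered by mean, DUO1 stood at 106 ± 39.5 FPKM in V-Mt SC and 148 ± 103 FPKM in WT SC, which do not differ beyond their spread, then at 35.0 ± 2.26 FPKM in V-Mt VC and 1.17 ± 0.779 FPKM in WT VC (SD, n = 3 each).

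Per the isoform table, only a part of the DUO1 value in pollen lay on the annotated transcript, and the rest lay on models without an annotated identity. The same held more strongly for DAW1, OPT8 and PCR11. Their annotated transcripts held at most 5.38% of the pollen value for DAW1, at most 4.19% for OPT8 and 3.12% to 29.8% for PCR11. Most of their pollen values thus lay on models whose structure is not known here. No annotated transcript of DAZ1 is listed among the pollen isoforms, so no share on it could be read. For DAF1 the share on the annotated transcript was 82.4% to 96.6% in V-Mt SC. In WT SC replicates 1, 2 and 3 the DAF1 share was 51.0%, 81.0% and 99.1%. The annotated transcript of DUO1 alone had 12.45, 15.5 and 7.47 FPKM in V-Mt VC, against 0, 0.93 and 0.72 FPKM in WT VC, so its libraries did not overlap either. It had 26.63, 72.79 and 7.31 FPKM in V-Mt SC, against 50.62, 0.23 and 45.68 FPKM in WT SC. On this transcript alone the SC and VC libraries overlapped in both lines. DUO1 overlaps the opposite-strand gene AT3G60450 by 10 bases at their ends, and no source used here says that reads were counted by strand. AT3G60450 had 10.41, 8.79 and 9.67 FPKM in V-Mt VC, against 0, 0.44 and 0.32 FPKM in WT VC, so it too was higher in V-Mt VC, and its part in the DUO1 value was not tested. No stretch of 50 bases in the transcripts of the 10 genes occurs, read in the same direction, in a transcript of another gene. The opposite strand was not searched, and OPT8 overlaps an opposite-strand gene by 125 bases.

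DAN1 (AT3G04620, chr3:1255398-1257017, minus strand), which codes for a nucleic acid binding protein, had 3393, 3390 and 3084 FPKM in V-Mt VC, against 161, 165 and 130 FPKM in WT VC. The V-Mt VC libraries ranked DAN1 between 6 and 8 of all genes, and the WT VC libraries between 981 and 1163. The adjusted p was 6.94e-09 (limma). Its whole value lay on the annotated transcript in every pollen library. In SC the level was 14618, 14738 and 13026 FPKM in V-Mt, against 10012, 10828 and 12486 FPKM in WT. The libraries did not overlap, yet the difference of 0.35 (SE 0.13) did not pass the test (adjusted p 0.132, limma). Ordered by mean, DAN1 stood at 14127 ± 956 FPKM in V-Mt SC, 11109 ± 1261 FPKM in WT SC, 3289 ± 178 FPKM in V-Mt VC and 152 ± 19.0 FPKM in WT VC (SD, n = 3 each).

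The zinc finger repressors DAZ1 and DAZ2 stayed near 0 in both VC groups. DAZ1 (AT2G17180, chr2:7476662-7477683) had 1.2, 0.27 and 0.74 FPKM in V-Mt VC, against 0.06, 1.52 and 0.84 FPKM in WT VC, and its libraries overlapped (log2 -0.01, SE 0.58, adjusted p 0.995, limma). DAZ2 (AT4G35280, chr4:16787280-16788283) had 0.16, 0.2 and 0.47 FPKM in V-Mt VC, against 0.69, 1.73 and 0.36 FPKM in WT VC, also with overlap (log2 -0.54, SE 0.39, adjusted p 0.229, limma). At these levels a fold change on the log2(FPKM + 1) scale understates a change, so a small difference was not detectable. Under quantile normalization both were called lower in V-Mt VC, at log2 -1.94 for DAZ1 and -2.16 for DAZ2.

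In sperm the DAZ2 level was lower in V-Mt. DAZ2 had 57.72, 23.25 and 36.75 FPKM in V-Mt SC, against 128.38, 118.58 and 95.2 FPKM in WT SC. The libraries did not overlap, and DAZ2 was the 1 gene of the 9 called in this comparison (log2 -1.60, SE 0.39, adjusted p 0.0443, limma), in which 5.11% of all tested genes were called and 3.93% were called lower. All genes called there numbered 1008, against 0 with only the SC libraries fitted (2035 at an unadjusted p under 0.05, limma), 322 to 517 without any 1 of the V-Mt VC libraries, WT VC replicate 2 or 3, or WT SC replicate 1, and 3296 without WT SC replicate 3. The DAZ2 call was lost in 16 of 19 alternatives, with an adjusted p of 0.0588 to 0.378 in those 16, the highest with only the SC libraries fitted, while its direction held in all 19. On the annotated DAZ2 transcript alone the SC libraries overlapped, at 37.62, 9.34 and 26.47 FPKM in V-Mt SC, against 50.36, 28.82 and 71.13 FPKM in WT SC. DAZ1 had 83.61, 85.53 and 36.87 FPKM in V-Mt SC, against 256.28, 243.27 and 66.15 FPKM in WT SC. WT SC replicate 3 lay within the V-Mt SC range for DAZ1, and the difference did not pass the test (log2 -1.31, SE 0.58, adjusted p 0.204, limma). Without WT SC replicate 3 DAZ1 was called lower (log2 -1.94, adjusted p 0.0258, limma, in a range of 0.0258 to 0.520 over its alternatives).

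DAZ3 (AT4G35700, chr4:16923319-16924334), a further DUO1-activated zinc finger gene, had 85.1, 58.93 and 64.48 FPKM in V-Mt VC, against 132.87, 200.14 and 159.61 FPKM in WT VC. All V-Mt VC libraries lay below all WT VC libraries (log2 -1.23, SE 0.27, adjusted p 0.00190, limma). In SC it had 14808, 14507 and 13229 FPKM in V-Mt, against 8734, 8173 and 16825 FPKM in WT, and WT SC replicate 3 stood above every V-Mt SC library. The annotation places another zinc finger gene, AT4G35610, close to DAZ3 on chromosome 4, and it followed a like order of levels. AT4G35610 had 29.65, 23.05 and 21.99 FPKM in V-Mt VC, against 126.07, 80.37 and 70.31 FPKM in WT VC (log2 -1.81, adjusted p 5.71e-05, limma).

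DAF1 had 436.67, 309.23 and 323.44 FPKM in V-Mt VC, against 549.46, 930.2 and 676.93 FPKM in WT VC. The libraries did not overlap, and the fall was 0.99 on the log2 scale (log2 -0.99, SE 0.25, adjusted p 0.00430, limma). PCR11 (AT1G68610, chr1:25763459-25764207), of the PLANT CADMIUM RESISTANCE family, had 81.24, 72.01 and 82.63 FPKM in V-Mt VC, against 95.8, 230.44 and 175.19 FPKM in WT VC. Its libraries did not overlap, though WT VC replicate 1 lay close to the V-Mt VC values (log2 -0.99, SE 0.38, adjusted p 0.0371, limma). On the annotated PCR11 transcript alone the libraries did overlap, at 11.49, 16.58 and 9.72 FPKM in V-Mt VC, against 5.01, 68.56 and 42.77 FPKM in WT VC. The PCR11 call was lost in 5 of 12 fits that left out 1 library, among them the fit without WT VC replicate 2, with log2 -0.72 and adjusted p 0.139, and those without WT VC replicate 3 or without any 1 of the V-Mt VC libraries, with adjusted p between 0.0740 and 0.100. Over all alternatives its adjusted p ran between 4.39e-04 and 0.139 (limma). In SC, PCR11 had 9101, 8467 and 8010 FPKM in V-Mt, against 6112, 5289 and 14559 FPKM in WT.

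DAW1 (AT4G35560, chr4:16881336-16887083), a WD40 repeat protein gene, and OPT8 (AT5G53520, chr5:21743366-21746061), an oligopeptide transporter gene, were scarce in VC. DAW1 had 1.22, 2.67 and 1.47 FPKM in V-Mt VC, against 1.46, 3.53 and 2.25 FPKM in WT VC. OPT8 had 2.51, 6.38 and 1.95 FPKM in V-Mt VC, against 5.54, 7.88 and 2.86 FPKM in WT VC. The libraries overlapped for both, and neither passed the test (adjusted p 0.449 for DAW1 and 0.250 for OPT8, limma). Both were called lower in V-Mt VC under median-ratio scaling (DAW1 -1.02, OPT8 -1.39) and quantile normalization (DAW1 -2.74, OPT8 -3.16), and OPT8 also without V-Mt VC replicate 2 (-0.92, adjusted p 0.0376). Over all alternatives the adjusted p ran between 2.45e-05 and 0.898 for DAW1 and between 3.52e-06 and 0.619 for OPT8 (limma). In SC, DAW1 had 294.82, 257.13 and 227.14 FPKM in V-Mt, against 134.21, 173.15 and 225.88 FPKM in WT, so its libraries did not overlap. OPT8 had 348.22, 287.34 and 321.9 FPKM in V-Mt SC, against 587.2, 628.47 and 473.41 FPKM in WT SC, again without overlap. Neither difference passed the test over all genes (log2 0.57, adjusted p 0.331 for DAW1 and log2 -0.81, adjusted p 0.243 for OPT8, limma).

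IMPA-8 (AT5G52000, chr5:21118946-21121119), an importin alpha gene, stood at or near 0 in pollen. V-Mt VC libraries had 0.36, 0.34 and 0.41 FPKM of it, whereas each WT VC and V-Mt SC library listed it at 0. In WT SC it was listed at 0 in replicates 1 and 2 and stood at 1.15 FPKM in replicate 3. The gene did not reach the filter. In a fit with no filter it did not pass the test in V-Mt VC (AT5G52000, log2 0.45, adjusted p 0.128, limma), and it was called in none of the 5 pollen comparisons.

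**Figure D2:**
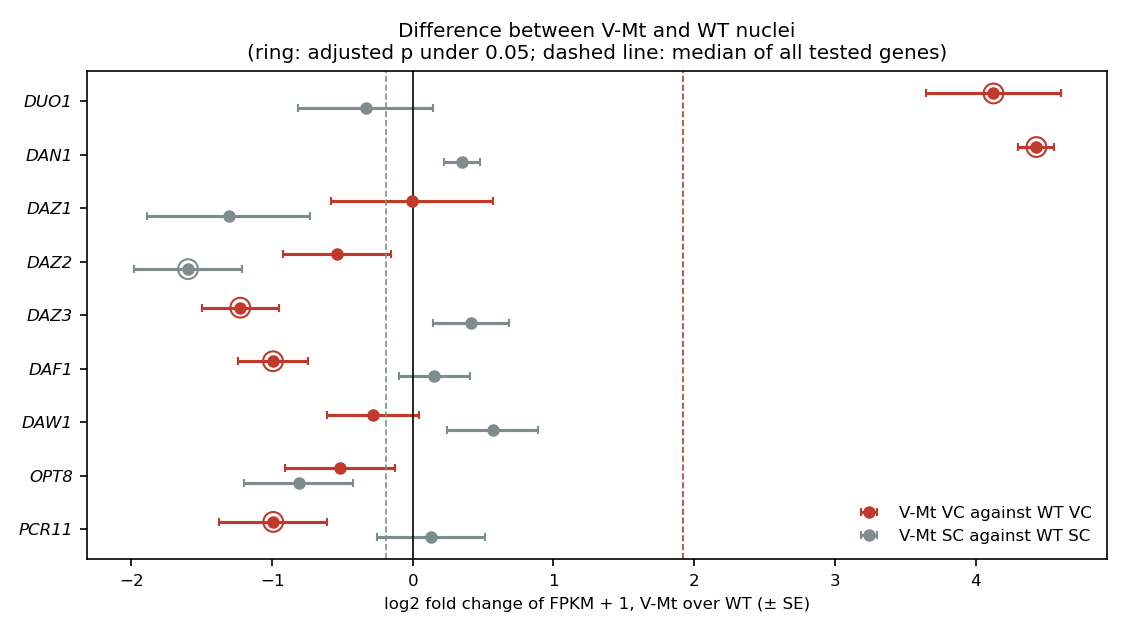
Log2 fold change of FPKM + 1 between V-Mt and WT for the 9 tested genes, in VC (red) and SC (grey), with bars of 1 SE; rings mark an adjusted p under 0.05, and dashed lines mark the median of all tested genes. DUO1 and DAN1 lie above the VC median of 1.92, and the other 7 lie below 0 in VC.

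The V-Mt effect differed between the cell types for DUO1 and DAN1 in one direction and for DAZ3 and DAF1 in the other. The log2 effect in VC, less the log2 effect in SC, was 4.46 (SE 0.68) for DUO1 and 4.08 (SE 0.18) for DAN1. It was -1.64 (SE 0.38) for DAZ3 and -1.15 (SE 0.35) for DAF1. Under quantile normalization DUO1 (1.82, adjusted p 0.0531) and DAF1 (-0.90, adjusted p 0.0574) lost this call in limma. With the deposited FPKM these are 2 higher and 2 lower of 9, where 67.7% of all tested genes were called, 60.5% higher and 7.18% lower. The median of this difference over all tested genes was 2.24. Relative to that median DUO1 stood at 2.23, DAN1 at 1.84, DAZ3 at -3.88 and DAF1 at -3.39. For the other 5 genes the test did not detect a difference, with adjusted p between 0.0893 (PCR11) and 0.653 (OPT8) in limma.

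Expressed within a line, the VC level was 33.0% of the SC level for DUO1 in V-Mt and 0.786% in WT. For DAN1 it was 23.3% in V-Mt and 1.37% in WT. These are gene values, and on the annotated DUO1 transcript alone the VC and SC libraries overlapped in both lines. The other 7 tested members lay between 0.490% and 1.13% in V-Mt and between 0.428% and 1.93% in WT. Among 12 sperm markers and annotated DUO1 targets outside the set, the median was 0.780% in V-Mt and 1.50% in WT. HAP2, the gamete fusion protein gene, reached 6.82% in V-Mt, against 0.965% in WT. DAU1, annotated as DUO1-activated, went against this pattern, at 92.2% in V-Mt and 173% in WT, with a lower call in WT SC against WT VC (log2 -0.80, adjusted p 0.0248, limma).

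**Figure D3:**
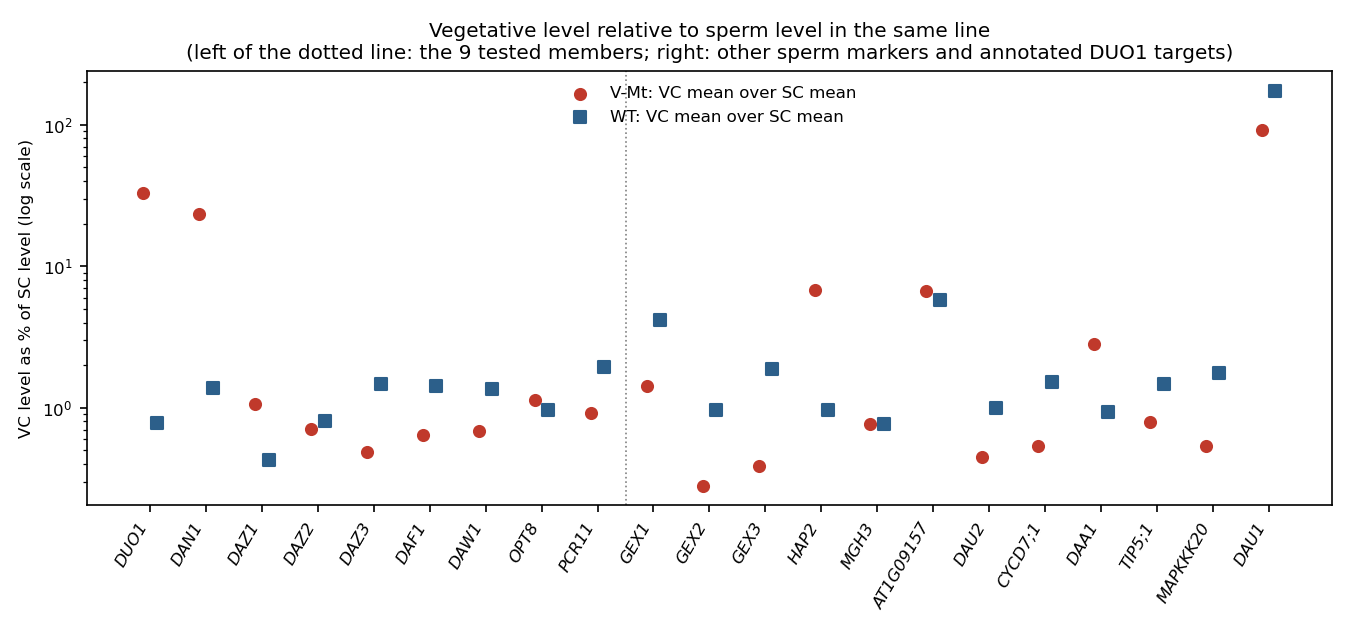
Mean VC level as a percent of the mean SC level of the same line on a log scale, for V-Mt (red circles) and WT (blue squares), with the 9 tested members on the left and 12 other sperm markers and annotated DUO1 targets on the right. DUO1 at 33.0% and DAN1 at 23.3% in V-Mt stand above the other members, which lie at 1.13% or below in V-Mt.

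All 9 tested genes were also higher in V-Mt SC than in V-Mt VC, where 71.4% of all tested genes were called and 13.4% were called higher. The rise was smallest for DUO1 (log2 1.51, SE 0.48, adjusted p 0.0152, limma) and DAN1 (log2 2.1, SE 0.13, adjusted p 1.01e-07, limma). For the other 7 it lay between 4.89 (DAZ2) and 7.67 (DAZ3). This comparison shares its V-Mt VC libraries with the one above. The DUO1 call was lost without V-Mt SC replicate 2 (log2 1.23, adjusted p 0.0605, limma, in a range of 7.24e-04 to 0.0605 over its alternatives). On the annotated DUO1 transcript alone the V-Mt SC and V-Mt VC libraries overlapped. With quantile normalization DAN1 lost its call and turned in sign (log2 -0.27, adjusted p 0.205, limma, in a range of 1.01e-07 to 0.205).

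V-Mt VC libraries were unlike WT VC libraries as a whole, and the size of the differences above depends on the scaling. The median change of all tested genes was 1.92 with the deposited FPKM. Median-ratio scaling moved it to 1.39, and quantile normalization to -0.02. DUO1 stayed called higher at 3.32 under median-ratio scaling, and at 1.64 under quantile normalization. DAN1 stayed called higher too, at 3.34 and 5.85 under these scalings. DAZ3, DAF1 and PCR11 stayed called lower under both, and no member changed its direction between these 3 scalings in VC. Under median-ratio scaling 2 members were higher and 5 lower, and under quantile normalization 2 were higher and 7 lower. Of all 19733 tested genes, 10888 were called higher and 3248 lower under the first, and 5770 higher and 5244 lower under the second. With the deposited FPKM these were 12334 higher and 2122 lower. Relative to the median of all genes, DUO1 stood 2.21 higher with the deposited FPKM, 1.93 higher after median-ratio scaling and 1.66 higher after quantile normalization.

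**Figure D4:**
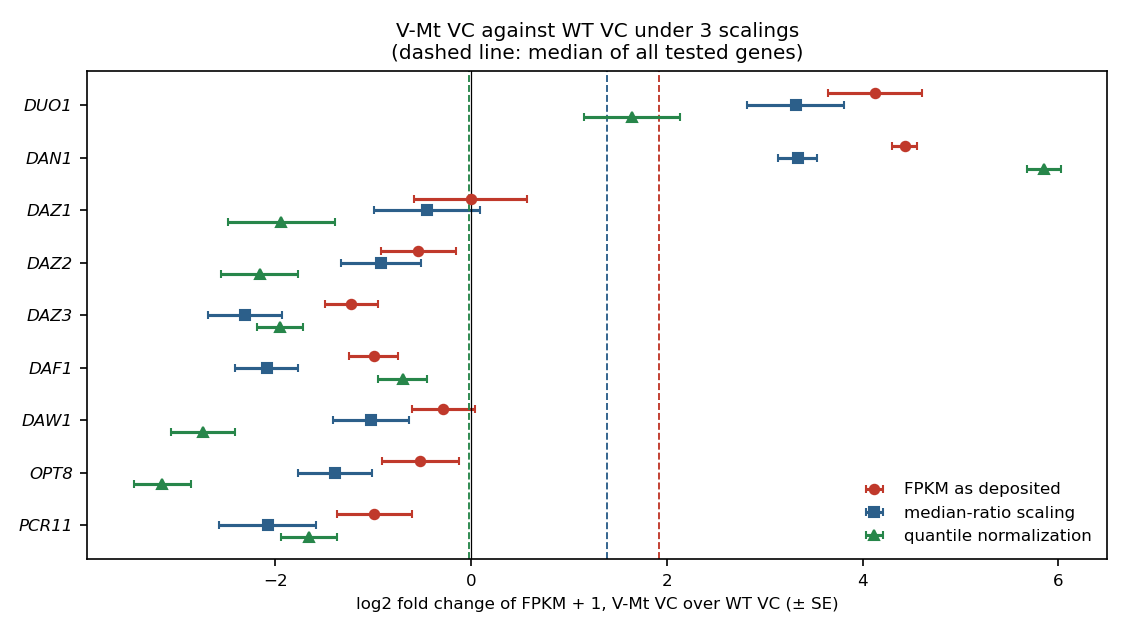
Log2 fold change of FPKM + 1 in V-Mt VC over WT VC for the 9 tested genes under 3 scalings, with bars of 1 SE; dashed lines mark the median of all tested genes under each scaling. DUO1 and DAN1 lie above 0 under all 3, and DAZ3, DAF1 and PCR11 lie below 0 under all 3.

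REF6, the gene of the transgene, had 1303, 2248 and 3001 FPKM in V-Mt VC, against 1.1, 0.42 and 0.48 FPKM in WT VC, and it varied in V-Mt SC (28.87, 58.4 and 436.38 FPKM, against 24.55, 23.2 and 10.77 FPKM in WT SC). Between 18735 and 18932 genes reached 1 FPKM in V-Mt VC, against 8093 to 8386 in WT VC. Among all tested genes 62.5% were called higher in V-Mt VC and 10.8% lower. The 12 vegetative cell markers summed to 2019 to 2511 FPKM in V-Mt VC, against 7522 to 8646 FPKM in WT VC, and 11 of the 12 were called lower, none higher (HA8 lost its call and turned to 0.03 under quantile normalization). The 8 sperm markers outside the members summed to 187 to 205 FPKM in V-Mt VC, against 261 to 367 FPKM in WT VC, with 2 called higher (MGH3 and HAP2, both below 0 under quantile normalization, and MGH3 under median-ratio scaling too) and 5 lower. CYCD7;1 and MGH3 made up most of that sum, at means of 70.6 and 82.8 FPKM in V-Mt VC, against 204 and 46.4 FPKM in WT VC. The MGH3 locus is HTR10, which the transgenes also carry. The 5 photosynthetic tissue markers summed to 60.3 to 68.6 FPKM in V-Mt VC, against 0 to 0.02 FPKM in WT VC, where 4 of the 5 were listed at 0. In SC they summed to 0.130 to 5.19 FPKM in V-Mt, against 5.56 to 63.1 FPKM in WT, so they were not particular to V-Mt VC. The 6 tapetum and anther wall markers summed to 36.6 to 44.4 FPKM in V-Mt VC, against 11.9 to 15.8 FPKM in WT VC. Of these, MS2 carried most of the V-Mt VC sum (mean 27.2 FPKM in V-Mt VC, against 0.157 FPKM in WT VC), MS2, AMS and AT5G07230 were called higher, and TDF1 (log2 -1.20) and DYT1 (log2 -1.97) lower, while under quantile normalization AMS was called lower (-2.14) and AT5G07230 was not called (-0.07). The part of other cell types in the DUO1 and DAN1 values was not tested, and in bulk libraries fewer cells of a type and less RNA per cell cannot be told apart. In WT SC against WT VC, 10 of 12 vegetative markers were lower and all 8 sperm markers higher, where 13.1% of all tested genes were lower and 27.3% higher. The shares in V-Mt SC against V-Mt VC were 58.0% lower and 13.4% higher. In V-Mt SC against V-Mt VC all 8 sperm markers were higher as well, but of the vegetative markers 2 were higher, 2 lower and 8 neither, with sums of 1012 to 2064 FPKM in V-Mt SC, against 2019 to 2511 FPKM in V-Mt VC, so the vegetative markers did not separate the V-Mt cell types.

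Other genes of the pathway were read from a list of 19, of which 16 were tested. In V-Mt VC against WT VC, 8 were higher and 4 lower, with a median of 0.48, where 62.5% of all tested genes were higher and 10.8% lower, with a median of 1.92. Those higher included the corepressor gene TPR3 (105, 108 and 129 FPKM in V-Mt VC, against 16.37, 9.83 and 13.68 FPKM in WT VC) and TPR4, annotated as WSIP2 (302, 320 and 301 FPKM in V-Mt VC, against 47.15, 45 and 45.64 FPKM in WT VC). TPR1 and TPR2 were higher as well, by 2.47 and 1.98, though both turned below 0 under quantile normalization (-0.24 and -1.18), and TPR2 lost its call under median-ratio scaling too. TPL, which codes for TOPLESS, did not pass the test (log2 -0.84, adjusted p 0.191, limma), but it was called lower under median-ratio scaling (-1.90) and quantile normalization (-2.62, adjusted p 3.92e-04). Of the cyclin genes, CYCB1;1, which codes for a mitotic cyclin, had 4.81, 5.85 and 5.71 FPKM in V-Mt VC, against 0, 0.12 and 0.09 FPKM in WT VC. Its log2 change was 2.59, and 0.13 without a call under quantile normalization. CYCB1;3 was higher too (log2 1.79) and called lower under quantile normalization (-1.11), the cyclin gene annotated as CYC1BAT was lower (log2 -0.75), and CYCB1;4 did not pass the test. DUO3 (AT1G64570), which acts beside DUO1 in the germline, had 27.64, 32.68 and 25 FPKM in V-Mt VC, against 35.2, 22.76 and 25.57 FPKM in WT VC, with overlapping libraries (log2 0.04). DUO3 was called lower under median-ratio scaling (-1.02, adjusted p 0.0495) and quantile normalization (-1.82, adjusted p 0.00510) in limma. ARID1 (AT2G46040), known to promote DUO1 transcription, was lower, at 2.23, 2.65 and 2.32 FPKM in V-Mt VC, against 10.73, 5.79 and 6.15 FPKM in WT VC (log2 -1.29, adjusted p 0.00230, limma).

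The 8 annotated DUO1 targets outside the set went both ways in V-Mt VC, where 62.5% of all tested genes were called higher and 10.8% lower. In V-Mt VC 3 were higher (MGH3, DAA1 and HAP2, all of which turned below 0 under quantile normalization, at -0.21, -2.00 and -0.22, with DAA1 then called lower), 3 were lower (DAU1, DAU2 and GEX2) and 2 did not pass the test (TIP5;1 and MAPKKK20). Both of these were called lower under median-ratio scaling (TIP5;1 -1.42, MAPKKK20 -2.06) and quantile normalization (TIP5;1 -1.30, MAPKKK20 -3.27). HAP2 had 13.44, 16.2 and 16 FPKM in V-Mt VC, against 0.23, 2.68 and 2.19 FPKM in WT VC (log2 2.73, adjusted p 7.76e-05, limma). TIP5;1, a pollen aquaporin gene, had 66.78, 62.04 and 69.82 FPKM in V-Mt VC, against 95.23, 93.61 and 66.49 FPKM in WT VC. GEX2, a gamete adhesion protein gene, had 1.9, 1.1 and 0.82 FPKM in V-Mt VC, against 2.45, 3.42 and 2.49 FPKM in WT VC. In WT SC against WT VC, 7 of the 8 were higher and DAU1 was lower, where 27.3% of all tested genes were higher and 13.1% lower.

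Of the 7 other miR159-targeted MYB genes, 4 were tested, of which MYB81 and MYB33 were higher and MYB120 lower in V-Mt VC. Among all tested genes 62.5% were higher there and 10.8% lower. MYB81 had 34.35, 31.78 and 30.11 FPKM in V-Mt VC, against 0, 0 and 0.02 FPKM in WT VC. MYB33, whose site is printed above, had 7.64, 9.96 and 6.97 FPKM in V-Mt VC, against 0.84, 0 and 0.09 FPKM in WT VC (log2 2.85, and 0.24 without a call under quantile normalization). MYB120, known for its role in the pollen tube, was lower, at 0.79, 1.39 and 0.75 FPKM in V-Mt VC, against 7.32, 9.5 and 7.62 FPKM in WT VC, and MYB101 did not pass the test (log2 -0.48, adjusted p 0.383, limma) but was called lower under median-ratio scaling (-1.57, adjusted p 0.00480).

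The families of 3 members were read gene by gene, beside 62.5% of all tested genes called higher and 10.8% lower in V-Mt VC. Of the 8 other importin alpha genes, 5 (62.5%, beside 62.5% of all tested genes) were higher in V-Mt VC and none lower, among them MOS6 (138, 142 and 130 FPKM in V-Mt VC, against 0.19, 2.64 and 3.1 FPKM in WT VC). Under quantile normalization IMPA-6 lost its call (0.14, adjusted p 0.870), and IMPA-7 was called lower under median-ratio scaling (-2.80) and quantile normalization (-4.27), IMPA-5 under the second alone (-1.88). IMPA-5 had a sperm pattern, at 205, 324 and 151 FPKM in V-Mt SC and 90.79, 141 and 72.18 FPKM in WT SC, with at most 1.32 FPKM in VC. Of the 8 other OPT genes, 5 were tested, with OPT2 and OPT9 higher and OPT1 lower in V-Mt VC, and OPT4 called lower too under median-ratio scaling (-1.27) and quantile normalization (-2.84). OPT9 (AT5G53510), the gene next to OPT8 on chromosome 5, had 72.33, 64.08 and 53.52 FPKM in V-Mt VC, against 0, 0.03 and 0 FPKM in WT VC, while OPT8 did not pass the test. OPT8 overlaps its opposite-strand neighbour VPS26A by 125 bases, and reads there cannot be told apart. Of the 11 other PCR genes, 4 were tested, with 3 higher and AT1G68630 lower in V-Mt VC, at 8.48, 8.6 and 7.95 FPKM against 88.05, 72.89 and 79.89 FPKM in WT VC. PCR2, one of those higher, lost its call under quantile normalization (0.38, adjusted p 0.0661).

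The genes whose profile over the 12 pollen libraries was most like that of DUO1 were sought among 12649 nuclear genes with a group mean of at least 10 FPKM. Likeness was the mean absolute difference of log2(FPKM + 1) after subtracting each gene's own mean, and it is a description over libraries that share groups and scaling. The nearest to DUO1 was AT2G32220 at 0.24, followed by RHL41 (0.35), VAP27-2 (0.36), AT5G04830 (0.37) and AT4G00585 (0.37). DAN1 was at 0.49, rank 58, and no other member stood nearer than rank 2711 (DAZ1, 1.60). The nearest to DAN1 were Fes1A (0.20), AT2G43320 (0.21), AT3G51690 (0.22), AT3G27050 (0.26) and AT1G31910 (0.26). DAZ1 was nearest to RDUF2 (0.47), KT1 (0.50), a gene model without an AGI locus (0.50), AT4G04690 (0.50) and AT4G35370 (0.54), and its nearest member was DAZ2 at rank 9 (0.56).

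**Figure D5:**
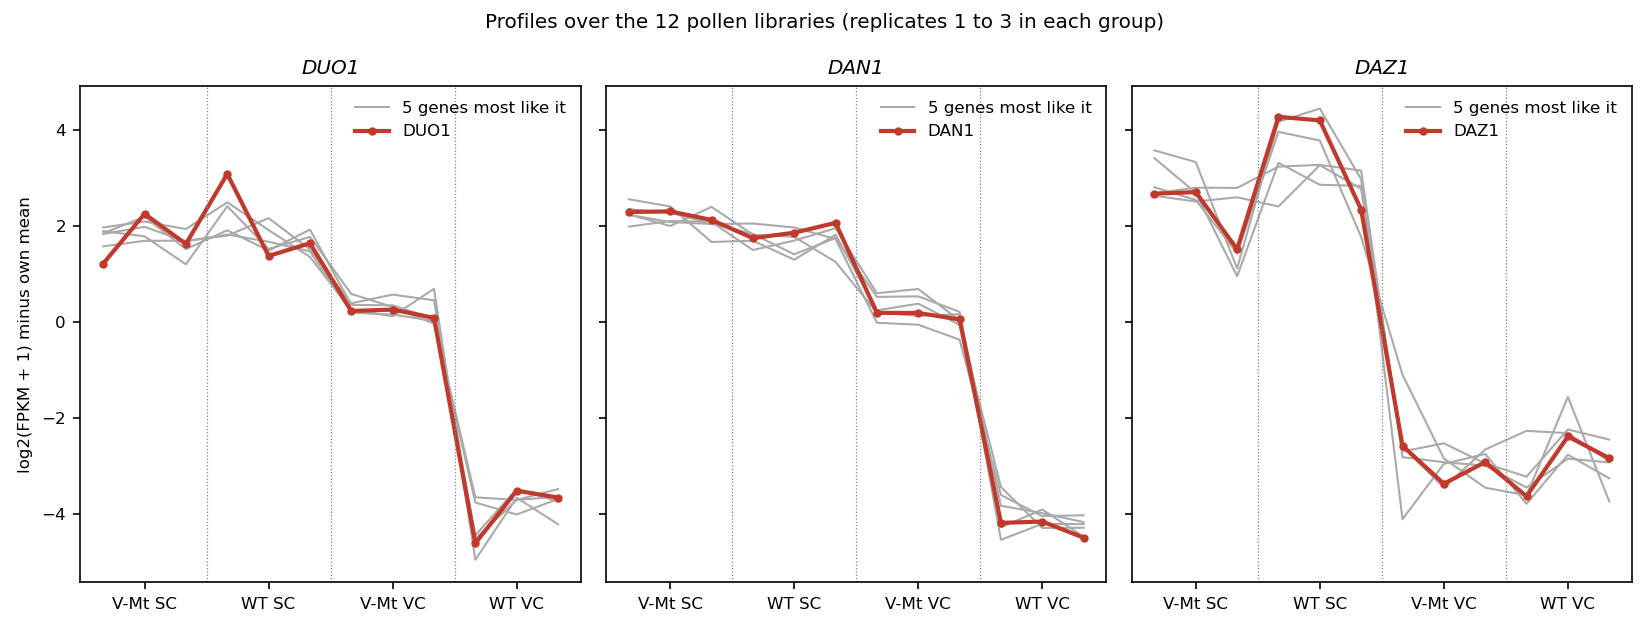
Log2(FPKM + 1) minus the gene's own mean over the 12 pollen libraries for DUO1, DAN1 and DAZ1 (red) and the 5 genes most like each (grey). DUO1 and DAN1 lie near their own mean in V-Mt VC, below it in WT VC and above it in SC, whereas DAZ1 lies below its mean in both VC groups.

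Late microspores are the stage before sperm and vegetative cells exist, yet RNA of markers of both was detected in these libraries, as given below. Whether the libraries also held later stages was not tested. DUO1 and DAN1 RNA was present in every late microspore library, and DAZ2, DAW1 and OPT8 stayed at 9.91 FPKM or below. DAF1, PCR11, DAZ3 and DAZ1 were high in some late microspore libraries and at 0 in others. This table was deposited separately, and its levels are set beside those of pollen with no test. DUO1 had 100.13, 117.51 and 286.85 FPKM in V-Mt LMS, against 7, 131.61 and 47.75 FPKM in WT LMS. The libraries overlapped, with WT LMS replicate 1 far below the others (log2 2.02, SE 0.91, unadjusted p 0.0539 and adjusted p 0.757, limma). DAN1 was even across the libraries, at 148, 92.26 and 124.9 FPKM in V-Mt LMS, against 111.95, 152.3 and 158.81 FPKM in WT LMS (log2 -0.22, SE 0.33, adjusted p 0.943, limma). DAZ2 was listed at 0 in all V-Mt LMS libraries and in WT LMS replicates 1 and 2, with 0.72 FPKM in WT LMS replicate 3.

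The targets abundant in sperm, other than DAN1, varied between microspore libraries. DAF1 had 809.9, 0 and 367.47 FPKM in V-Mt LMS, against 0, 79.19 and 30.93 FPKM in WT LMS. PCR11 had 78.53, 0 and 91.06 FPKM in V-Mt LMS, while every WT LMS library listed it at 0, and DAZ3 had 131.2 FPKM in V-Mt LMS replicate 1 and was listed at 0 in the other 5. DAZ1 had 0, 0 and 49.99 FPKM in V-Mt LMS, against 10.39, 0 and 0.78 FPKM in WT LMS. DAW1 had at most 9.91 FPKM and OPT8 at most 6.34 FPKM. The sperm markers outside the members summed to 19.0 to 529 FPKM in V-Mt LMS, against 20.4 to 85.3 FPKM in WT LMS, and the vegetative cell markers to 160 to 2000 FPKM in V-Mt LMS, against 199 to 972 FPKM in WT LMS. Of these VGD1, 1 of 12 listed, had 1243, 90.51 and 722.85 FPKM in V-Mt LMS, against 152.4, 680.88 and 539.77 FPKM in WT LMS. VGD1 was named after its values were seen, and the other vegetative markers are not given per library. It was high in V-Mt LMS replicates 1 and 3, as DAF1 and PCR11 were. It was also high in WT LMS replicates 2 and 3, where PCR11 was listed at 0. The part of both marker lists in the values of the targets was not tested. The filter left 4 members (DUO1, DAN1, DAF1 and DAW1), and none was called, in a comparison where 0% of 18002 genes were called by limma and 1195 had an unadjusted p under 0.05. REF6, the gene of the transgene, was not called there either (log2 3.11, SE 0.37, unadjusted p 1.55e-05 and adjusted p 0.193, limma). The absence of calls in microspores is therefore weak evidence of no difference. Estimated depth was 1900000 to 3300000 fragments per LMS library, where 1 fragment per kilobase was worth 0.307 to 0.516 FPKM. The zeros of DAF1 in both groups and of PCR11 in V-Mt LMS stood beside values far above that in other libraries of the same group. PCR11 had no such value in WT LMS, where every library listed it at 0.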

How the data were processed

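The 10 genes, the gene lists and the comparisons were chosen with earlier results of these data known. The authors deposited FPKM values per gene and per isoform, in 2 gene tables and 2 isoform tables. Per the submitters' processing notes, pollen nuclei were processed on TAIR10 with RSEM 1.3.1, Bowtie2 2.3.5, StringTie 1.3.5 and HISAT2 2.1.0, and microspores with RSEM 1.3.1, Bowtie2 and HISAT2 2.1.0. The settings were not given in the sources used. The labels' protocols describe mRNA from sorted nuclei, total RNA from about 100000 microspores per sample, and SMART-Seq amplification of both. Isoform values were used only to see how much of a gene's value lay on its annotated transcript. The microspore tables each held 2 lines of stray text, which were left out.

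A gene was tested where 3 or more libraries of its table held at least 1 FPKM, with limma 3.58.1 (trend, R 4.3.3) on log2(FPKM + 1), 2-sided, with Benjamini-Hochberg adjustment at 0.05 over all genes tested. The 12 pollen libraries were fitted together with 1 mean per group, and the 6 microspore libraries apart. The fit was tested on simulated data. The tables hold no counts. The spacing of low values, with an assumed fragment of 250 bases, put the depth at 9500000 to 24000000 fragments per pollen library. Alternatives were a pseudocount of 0.1, other filters, median-ratio scaling, quantile normalization, a replicate block, only the groups compared, and leaving out each library. Named genes were all members, REF6, up to 6 genes per list by smallest adjusted p in V-Mt VC or WT SC against WT VC, all other pathway genes, and the 5 genes most like DUO1, DAZ1 and DAN1. MAPKKK20, DAU1, IMPA-7 and VGD1 were named outside this rule, after their values were seen. AT3G60450 and VPS26A were named because they overlap members. Gene names, positions and sequences came from RefSeq's TAIR10.1; the tables hold no coordinates. Python 3.11.15 with pandas 2.3.3 was used.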

Additional observations from a re-analysis of the deposited data

Results flagged for a closer look

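For 4 genes the V-Mt effect in VC differed from that in SC by a test of the difference itself (limma, adjusted over 19733 genes). The difference on the log2 scale was 4.46 for DUO1 (adjusted p 1.81e-04) and 4.08 for DAN1 (adjusted p 2.38e-07), with the effect higher in VC. It was -1.64 for DAZ3 (adjusted p 0.00330) and -1.15 for DAF1 (adjusted p 0.0146), with the effect lower in VC. Under quantile normalization the calls of DUO1 (1.82, adjusted p 0.0531) and DAF1 (-0.90, adjusted p 0.0574) were lost. For each of the 4 the V-Mt VC libraries did not overlap those of WT VC. The test that picked the 4 used these same values, so this describes them and is no further support. The share of all genes without overlap was not counted. By the test of the difference 67.7% of all tested genes were called, 60.5% higher and 7.18% lower, and the median difference over all tested genes was 2.24.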

How the results depend on the processing

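Members called lower in V-Mt VC numbered 3, against 5 after median-ratio scaling and 7 after quantile normalization. The lower calls over all tested genes rose as well, at 2122, 3248 and 5244 in the same order. In the difference between the effects the lower members numbered 2, and 4 under each of these scalings, with 1 higher in place of 2 under quantile normalization. There DUO1 (1.82, adjusted p 0.0531) and DAF1 (-0.90, adjusted p 0.0574) lost their calls in limma. Over all tested genes that difference was called lower for 1416, 2670 and 4338 and higher for 11935, 9907 and 4656, in the same order. In V-Mt SC against WT SC the 1 lower member, DAZ2, was 0 with pseudocount 0.1, no filter, either scaling, the replicate block or only the groups compared, and median-ratio scaling called 1 higher. All genes called there numbered 1008, against 612 with no filter, 430 with quantile normalization, 608 with the replicate block and 0 with only the 2 groups compared (2035 at an unadjusted p under 0.05). Leaving out 1 library gave 322 to 3296 calls there, with 0 to 2 members higher and 0 to 2 lower; without WT SC replicate 3 DAZ3 and DAN1 were called higher. Calls over all genes in microspores were 0 to 2, members lower in V-Mt VC 2 to 3, members higher in V-Mt SC against V-Mt VC 8 to 9, and members called in the difference between the effects 2 to 3 each way. Directions that turned concerned genes not called with the deposited FPKM, other than DAN1 in V-Mt SC against V-Mt VC (-0.27 with quantile normalization): DAZ1 in VC (0.24 with pseudocount 0.1, -0.35 to 0.28 without 1 library), DUO1 in SC (0.18 with median-ratio scaling, -0.66 to 0.19 without 1 library), DAF1 in SC (-0.10 to 0.29 without 1 library), PCR11 in SC (-0.01 with quantile normalization, -0.15 to 0.58 without 1 library), and in the difference DAZ1 (-0.74) and DAZ2 (-0.76) with quantile normalization and OPT8 (-1.10 with median-ratio scaling, -2.39 with quantile normalization and then called at adjusted p 6.98e-04 in limma, -0.11 to 0.57 without 1 library). Of 893 refits of 49 results for members, 833 were counted as keeping direction and side of the threshold. That count includes all 11 refits of DAW1 in V-Mt LMS against WT LMS. Its log2 change of -0.00 had no direction to keep, and it ran between -0.72 and 0.91 without a call. Where a refit did not keep both, the cause was not tested. Replicate numbers did not pair the libraries: correlations of their deviations ran between -0.201 and 0.145 in pollen and between -0.132 and 0.035 in microspores. The replicate block changed no call of a member other than DAZ2 in SC (adjusted p 0.0772). At the depth of the microspore libraries, levels under about 1 fragment cannot be told from 0.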
